A study of Rattus norvegicus with 29 samples.

Results

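Isolated open chromatin regions (OCRs) of the rat brain were the autosomal OCRs of the deposited count table that had no other OCR of that table within 100000 bp of either edge. The rule used positions alone, and it found 1199 such OCRs among 96966 autosomal OCRs and 98237 OCRs in all. The other 95767 autosomal OCRs are called the remaining OCRs. Accessibility had been read in 29 libraries by ATAC-seq, where an enzyme places sequencing adapters into DNA it can reach. The rats were adult male Sprague-Dawley animals, and the tissues were the nucleus accumbens (NAc), which belongs to the ventral striatum, the subventricular zone (SVZ), and Ammon's horn (CA) and the dentate gyrus (DG) of the hippocampus. Rats had received methamphetamine (METH, 10 mg/kg) or saline (1 mL/kg) in 4 intraperitoneal injections, 2 h apart, and were killed 24 h after the last one. There were 4 libraries for each treatment of NAc, DG and CA, while SVZ had 3 after saline and 2 after METH. NAc and SVZ were punched from frozen slices, and DG and CA were scooped from the chilled brain and then frozen, so each library was made from a mixture of cells, in which fewer cells of a type and less signal per cell cannot be told apart.

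Open regions are stretches where nucleosomes are loose or absent and proteins can reach the DNA. They mark promoters, at gene starts, and enhancers and insulators, which can lie far from any gene. Open regions are dense around active genes and sparse in gene deserts, long intervals with few or no coding genes, where the open sites that exist are often distal enhancers used by particular cell types. Among the tissues sampled, NAc is built mainly of medium spiny neurons, DG of granule cells and CA of pyramidal neurons, while the SVZ is a thin stem cell niche that lines the ventricle beside the striatum.

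The libraries held 7.55 to 19.4 M (mega) counts in OCRs, and the isolated OCRs took 0.458% to 0.731% of them. Levels are given as CPM (counts per M counts, on upper-quartile library sizes). In 5 libraries the isolated OCRs stood lowest against the remaining ones, namely NAc METH replicate 3, DG saline replicate 2, DG METH replicates 1 and 4, and CA saline replicate 2. The top-decile share, the percentage of counts in the 10% of OCRs with the highest level, was 54.7% to 62.4% in these 5 and 45.5% to 59.0% in the other 24 libraries. SVZ METH replicate 2, which is 1 of 2 METH libraries of the SVZ, carried an additional tag in its peak names, of unstated meaning. The level, the counts higher in a region and the METH results are also given without these 5 libraries.

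Isolated OCRs lay far apart by construction, and their positions were uneven across chromosomes. The distance to the nearest OCR had a median of 147544 bp among them, with quartiles of 118663 and 207529 bp, against a median of 4663 bp among the remaining OCRs. Chromosome 2 held the most, 167 of its 7508 OCRs (2.22%), and chromosome 12 the fewest, 7 of 2848 (0.246%). Chromosome 2 also had the fewest OCRs per Mb, 28.2, and chromosome 12 the most, 54.1. Of the 1199 isolated OCRs, 696 (58.0%) had another isolated OCR as the next OCR on at least 1 side, and the longest unbroken run counted 8. By the rule, the OCR next to a member already has a gap of more than 100000 bp on the side they share. These values thus partly follow from the rule, and no matching share was counted for remaining OCRs. Only 7 were the first or last OCR of their chromosome.

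The most remote OCR was chr3:74459662-74460321 (build rn6, as all positions here), 660 bp wide and 1338974 bp from its nearest neighbour. It was followed by chr6:139262969-139263727, at 1201611 bp, and by chr8:18672230-18672905, at 1194196 bp. The former had a mean of 2.90 CPM and peaks in 4 libraries, and no difference among regions (FDR 0.669, edgeR). The 3 members closest to the limit had distances of 100082, 100103 and 100179 bp, with mean levels of 2.83, 2.78 and 3.4 CPM. The 3 OCRs just outside it, at 99909, 99909 and 99900 bp, had mean levels of 5.28, 4.40 and 45.1 CPM, and the first and second of them are each other's neighbours on chromosome 3. The genes next to these OCRs and their sequence were not analysed here, because no rn6 annotation or genome was used.

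Isolated in the table did not mean that no other peak was called nearby. The table was made by merging, and the 29 deposited peak lists, 1 for each library, hold further peaks that overlap none of its OCRs. Within 100000 bp of 1151 of the 1199 isolated OCRs (96.0%), at least 1 library had such a peak, against 99.9% of the remaining OCRs. Around 650 isolated OCRs (54.2%) at least 5 libraries had one at the same place, against 90.6% of the remaining OCRs. A median of 5 such places lay around an isolated OCR and of 17 around a remaining OCR. In 48 isolated OCRs no library had any other peak within that distance.

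Isolated OCRs were low and, taken over all levels, were called in fewer libraries than the remaining OCRs. Their mean level over the 29 libraries had a median of 2.75 CPM, with quartiles of 1.99 and 4.28 CPM, whereas the remaining OCRs had a median of 4.30 CPM with quartiles of 2.82 and 8.42 CPM. A mean of 10 CPM or more was reached by 91 isolated OCRs (7.59%) and by 21.0% of the remaining OCRs, and 37 (3.09%) lay in the top decile of the table. In counts, an isolated OCR had a median of 34.3 reads per library against 53.9. Peaks overlapped an isolated OCR in a median of 11 of the 29 libraries, against 17, and in all 29 for 117 members (9.76%) against 21.1%. At like levels the isolated OCRs were not called in fewer libraries. In 4 equal groups of the table by mean log2 CPM, the medians were 8 against 8 in the lowest and 16 against 13 in the second. They were 26 against 22 in the third and 29 against 29 in the highest.

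Width differed less than level. The median width was 628 bp, with 10% of the isolated OCRs under 428 bp and 10% over 1002 bp, against a median of 662 bp. The widest was chr1:117144573-117147158 with 2586 bp, and the narrowest was chr15:81600027-81600279 with 253 bp. Per kb of width the median level was 4.47 CPM in isolated and 7.11 CPM in remaining OCRs. Width rose with level in both sets, and at like levels the isolated OCRs were the wider ones. The table was split by mean log2 CPM into 4 level groups of equal size. In the lowest level group, where 695 of the 1199 lay (58.0%), the median width was 572 bp against 529 bp, and in the highest level group, with 109 members, it was 1042 bp against 1008 bp.

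The peaks over isolated OCRs had a higher fold over their surroundings, in which the rule allows no other OCR. The peak caller's fold enrichment over local background, taken as the median over the libraries with a peak, was 6.38 at the median isolated OCR and 5.40 at the median remaining OCR. In the lowest level group it was 6.07 against 5.04, and in the highest level group 12.0 against 8.86. It was higher in isolated OCRs in each of the 4 level groups. The comparison is not independent of the rule, and how much of the difference the rule itself brings was not tested.

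Level was lower at larger distances. The median was 4.91 CPM for OCRs with a neighbour within 1000 bp, 4.37 CPM at 1000 to 5000 bp, 4.40 CPM at 5000 to 10000 bp, 3.94 CPM at 10000 to 30000 bp and 3.08 CPM at 50000 to 100000 bp. It went on falling inside the isolated set, to 2.82 CPM in the 879 members at 100000 to 200000 bp, 2.55 CPM in the 288 at 200000 to 500000 bp and 2.30 CPM in the 32 beyond 500000 bp. The limit of 100000 bp therefore cut a gradual decline, and no step was seen at it.

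**Figure D1:**
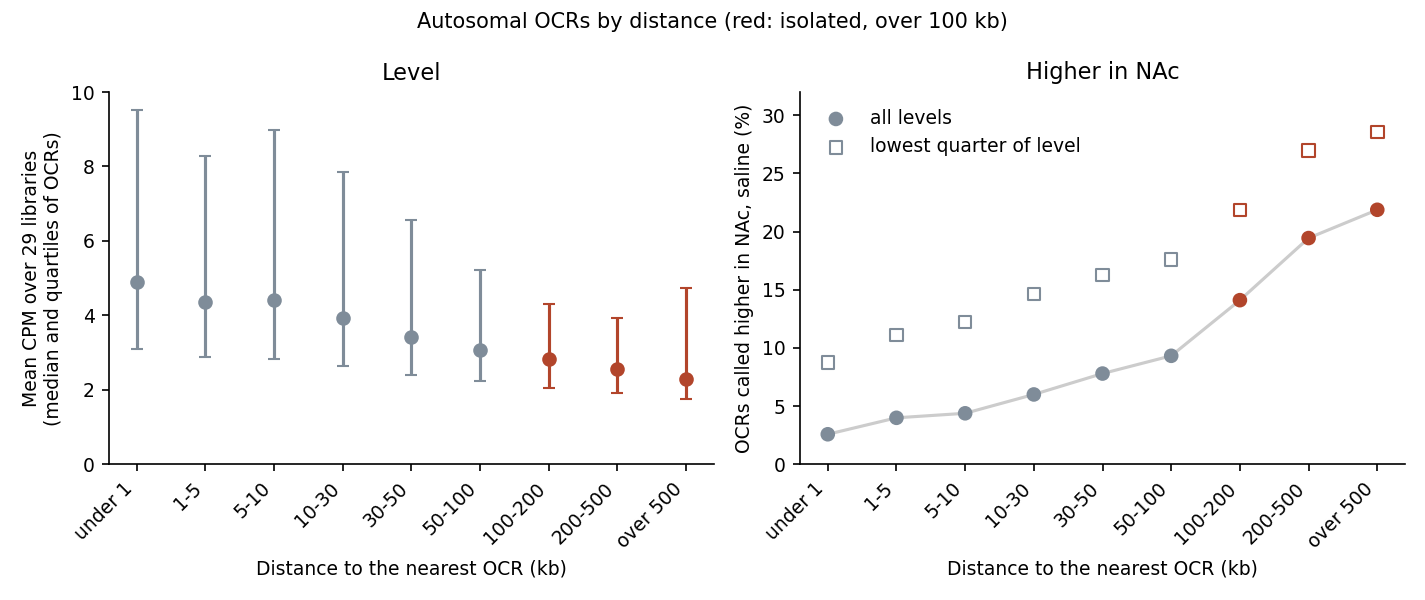
Autosomal OCRs are grouped by the distance to their nearest OCR in kb, isolated OCRs in red. The left panel plots the mean CPM over the 29 libraries as the median and quartiles of the OCRs in each group, falling from 4.91 to 2.30 CPM. The right panel plots the percentage called higher in NAc than in the other regions in saline libraries, over all OCRs (circles) and over the lowest level group alone (open squares), rising from 2.58% to 21.9% and from 8.76% to 28.6%.

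The lower level was present in each of the 29 libraries, but its size varied between replicates. The median log2 CPM of isolated minus remaining OCRs was -0.73 ± 0.31 (SD, n = 29). It ran from -1.46 in DG METH replicate 1 to -0.32 in DG METH replicate 3, so the extremes came from replicates of 1 group. The 5 libraries named above had values of -1.17 (NAc METH replicate 3), -1.14 (DG saline replicate 2), -1.46 and -1.36 (DG METH replicates 1 and 4) and -1.40 (CA saline replicate 2), and all others lay between -0.95 and -0.32. Without these 5 libraries the difference was -0.61 ± 0.17 (SD, n = 24). When peaks outside the table also counted as neighbours, which left 48 OCRs, the difference was -0.31.

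**Figure D2:**
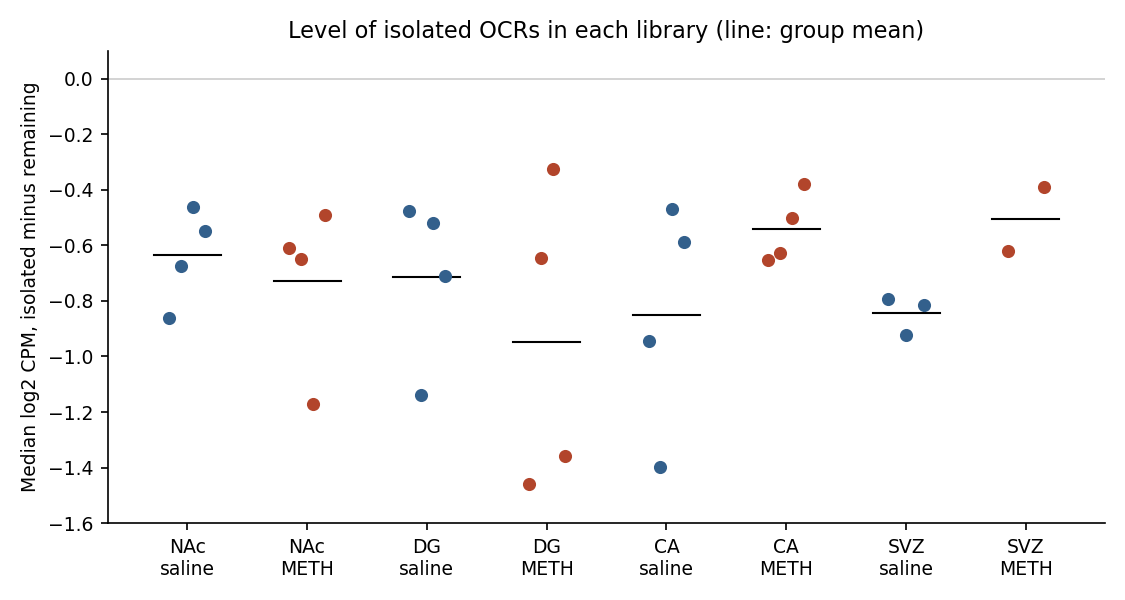
Each point is 1 library, saline in blue and METH in red, and its height is the median log2 CPM of the isolated OCRs minus that of the remaining OCRs. Lines mark group means. All 29 points lie below 0, DG METH spans -1.46 to -0.32, and in SVZ both METH libraries (-0.62 and -0.39) lie above the 3 saline libraries (-0.92 to -0.79).

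Replicates also scattered more at isolated OCRs. The SD of log2 CPM between replicates of a group, pooled over the 8 groups, had a median of 0.81 in isolated and 0.54 in remaining OCRs. It was larger in each level group, from 0.93 against 0.77 in the lowest to 0.39 against 0.36 in the highest. The precision of every difference below is lower for isolated OCRs accordingly.

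A small group of isolated OCRs was high, and in most of them the regions were close in level. The widest, chr1:117144573-117147158, was also the highest, with a mean of 149 CPM and a peak in all 29 libraries. It had 153 ± 24 CPM in NAc saline (SD, n = 4), 146 ± 52.9 in DG saline (n = 4), 117 ± 53.2 in CA saline (n = 4) and 231 ± 11.1 in SVZ saline (n = 3). Its SVZ saline libraries held 227, 222 and 243 CPM and lay above all other saline libraries, of which DG replicate 3 was highest with 214 CPM, but the SVZ difference did not pass the threshold (log2 fold change 0.74 ± 0.25 SE, FDR 0.13, edgeR quasi-likelihood F test). No library had a peak outside the table within 100000 bp of it.

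The second highest, chr19:27464247-27465436, had 124 CPM on average and ran from 82.1 to 203 CPM over the 29 libraries. Its saline means were 118 ± 31.8 in NAc, 127 ± 27.5 in DG and 118 ± 27.3 in CA (n = 4 each) and 109 ± 24.9 in SVZ (n = 3), so its regions overlapped widely. The next were chr2:100677071-100678009 with 90.3 CPM, chr8:17421053-17422047 with 83.8 CPM, chr2:128675299-128676163 with 70.6 CPM and chr19:33080347-33081929 with 61.6 CPM, each with a peak in all 29 libraries. Over the 37 members in the top decile, the highest region mean in saline was a median of 1.20 times the lowest, and it was under 2 times in 36. None of the 37 differed among regions at an FDR under 0.01, but such calls were rare at high levels in both sets. In the highest level group, 2 of 109 isolated OCRs (1.83%) and 0.912% of the remaining OCRs were called.

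The study pairs OCRs with human orthologous regions that hold variants from association studies and names the human genes there. Such pairs existed for 7 isolated OCRs (0.584%) and for 0.843% of the remaining OCRs. The highest of the 7, chr2:223321536-223323096, is paired with the interval between RN7SKP270 and PTBP2, a regulator of splicing in neurons. It had 52.2 CPM, was 12 in order of mean log2 CPM among isolated OCRs, had a peak in all 29 libraries and ran from 24 to 81.7 CPM. chr14:110305139-110306739, paired with the noncoding RNA gene LINC01122, had 14.6 CPM and a peak in 29 libraries. chr13:12548171-12548934, paired with CNTNAP5, which encodes a contactin-associated adhesion protein of the nervous system, had 3.8 CPM and peaks in 13 libraries. chr6:53505108-53505583, paired with HDAC9, a histone deacetylase, had 2.15 CPM and peaks in 12. The other two of the first 6 by level, chr7:28370502-28371133 near LINC00485 and chr8:15456656-15457160 near LINC02756, had 4.15 and 2.73 CPM. None of these 6 differed among regions in saline (FDR 0.127 to 0.979, edgeR) or between METH and saline (FDR 0.572 or more).

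Isolated OCRs differed among brain regions far more often than the table as a whole, and most of those called were higher in NAc. In the saline libraries an OCR was called higher in a region when it exceeded the average of the other 3 by more than 1 on the log2 scale, with an FDR under 0.01 over the whole table. Of the 1199 isolated OCRs, 187 (15.6%) were higher in NAc, where 4.66% of all OCRs tested were called. By 1 test for any difference among the 4 regions, 266 (22.2%) were called, against 7.51% of all OCRs. NAc was the region with the highest mean in 187 of these 266 (70.3%), DG in 47 (17.7%), CA in 18 and SVZ in 14. Among the remaining OCRs with any difference NAc was highest in 67.3% and DG in 15.8%, so isolated OCRs had more calls with a like division among regions. Over all 1199 isolated OCRs, called or not, DG was highest in 415 (34.6%) and NAc in 373 (31.1%). Over all remaining OCRs it was 26.4% and 27.9%.

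The larger share held at like levels. In the lowest level group, 163 of 695 isolated OCRs (23.5%) were higher in NAc against 12.6% of the remaining OCRs in that level group. In the second level group it was 16 of 231 (6.93%) against 3.45%, in the third 6 of 164 (3.66%) against 1.85%, and in the highest 2 of 109 (1.83%) against 0.325%. The share also rose with distance, from 2.58% of OCRs with a neighbour within 1000 bp to 9.32% at 50000 to 100000 bp, 14.1% at 100000 to 200000 bp, 19.4% at 200000 to 500000 bp and 21.9% (7 of 32) beyond. Over the 23 other settings, leaving out each saline library among them, the share of isolated OCRs called was 2.43 to 4.94 times that of the table. The count itself was 102 without NAc saline replicate 4 and 124 without NAc saline replicate 3, and 196 without DG saline replicate 2 and CA saline replicate 2.

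**Figure D3:**
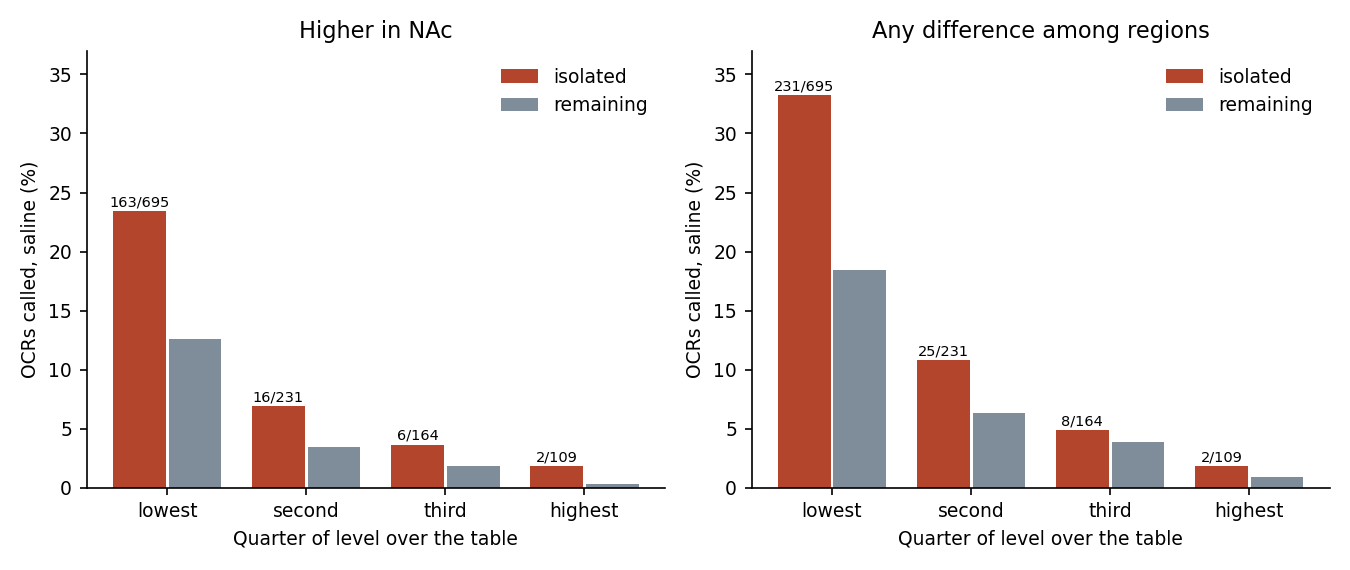
Bars give the percentage of isolated (red) and remaining (grey) OCRs called higher in NAc (left) or different among the 4 regions (right) in saline libraries, within each level group of the table. Counts of isolated OCRs called over those in the level group stand above the red bars. Isolated OCRs were called more often in each of the 4 level groups, 23.5% against 12.6% and 33.2% against 18.4% in the lowest.

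The 187 OCRs higher in NAc were open in NAc and SVZ and nearly closed in the hippocampus. Their median saline levels were 5.14 CPM in NAc, 3.5 in SVZ, 0.490 in DG and 0.450 in CA, and in each of the 187 the SVZ mean was the second highest. All NAc saline libraries lay above those of every other region in only 17 of the 187. Neither the share with SVZ second nor the share without overlap was counted among remaining OCRs. They were called in a median of 9 libraries. The METH libraries came from other animals and were not used in the saline test. Their peaks had helped form the table, however, so they are not an independent check. In the METH libraries the medians were 4.38 CPM in NAc, 3.57 in SVZ, 0.478 in DG and 0.417 in CA. There, all 187 kept a positive NAc difference, 185 with a log2 fold change above 1, and the median was 2.24 after 2.54 in saline. The same test in the METH libraries called 86 isolated OCRs (7.17%) and 2.18% of the table. Of the 187, it called 70 (37.4%), and of the 4316 remaining OCRs higher in NAc in saline it called 35.0%.

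The largest NAc difference was at chr5:91767144-91767533, a narrow OCR of 390 bp paired with a human interval between the pseudogenes RPL4P5 and PPIAP33. It had 4.09, 2.34, 3.0 and 4.62 CPM in NAc saline and 1.06, 1.13 and 2.95 CPM in SVZ saline. DG saline held 1 count over 4 libraries and CA saline 6 counts. NAc did not overlap with DG or CA, but it did with SVZ. The log2 fold change was 4.28 ± 0.56 (SE) with an FDR of 0.00013 (edgeR), and its size depends on how counts near 0 are handled.

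The next, chr16:66501931-66502558, had the second largest NAc difference and the largest SVZ difference. NAc saline had 12.0, 8.76, 11.9 and 20.4 CPM and SVZ saline 3.48, 5.21 and 17.1 CPM, while DG and CA saline stayed at or below 0.525 CPM. The log2 fold change was 4.11 ± 0.41 for NAc (FDR 3.6e-05) and 3.26 ± 0.43 for SVZ (FDR 0.0030, edgeR). After METH, 3 NAc libraries had 7.96, 10.2 and 14.4 CPM and replicate 3, one of the 5 libraries named above, had 0.369 CPM. A similar OCR, chr13:65919935-65920382, had 5.57 ± 2.12 CPM in NAc saline (SD, n = 4), 4.05 ± 3.55 in SVZ saline (n = 3), and 0.121 and 0.155 CPM in DG and CA. It came second in the SVZ list with a log2 fold change of 3.03 ± 0.48 (FDR 0.0051), and NAc METH replicate 3 again stood low, at 0.554 CPM against 5.04 to 9.02 CPM in the other NAc METH libraries.

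Among the most remote OCRs, chr8:18672230-18672905 shared this pattern. It had 11.1, 11.4, 11.9 and 15 CPM in NAc saline, 2.95 to 9.57 CPM in SVZ, and no more than 5.01 CPM in either hippocampal region. NAc did not overlap with any other region in saline, and the log2 fold change was 1.87 ± 0.37 (FDR 0.0030, edgeR). The most remote of all, chr3:74459662-74460321, went the other way, with 0.328 to 8.93 CPM in CA, 0.640 to 7.01 CPM in DG and at most 0.385 CPM in NAc and 0.782 CPM in SVZ. It passed the test for any difference (FDR 0.0093) but no single region's threshold. Its DG and CA libraries overlapped with those of SVZ through DG saline replicate 2 (0.640 CPM) and CA saline replicate 2 (0.328 CPM), both among the 5 libraries named above.

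In SVZ, 25 isolated OCRs (2.09%) were called higher, against 0.399% of the table. In each of the 25 the highest of the other regions was NAc, and the median saline levels were 6.26 CPM in SVZ and 8.03 CPM in NAc, with 0.461 and 0.380 CPM in DG and CA. The medians of SVZ thus lay above those of the hippocampus but not above that of NAc. The share with NAc as the highest other region was not counted among remaining OCRs. With the animal as a block, 0 isolated OCRs were called and 0.0163% of the table, and 48 isolated OCRs were called without DG saline replicate 2 and CA saline replicate 2.

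Few isolated OCRs were higher in a hippocampal region alone. In DG it was 7 (0.584%) against 0.155% of the table, and in CA 2 (0.167%) against 0.0814%, or 8 with the animal as a block, against 0.196%. In all 7 the second highest region was CA, and in both CA members it was DG. Such shares were not counted among remaining OCRs. Without DG saline replicate 2 and CA saline replicate 2, 5 (0.417%) were higher in DG, against 0.153% of the table. In CA it was then 50 (4.17%) against 1.34% of the table, so the CA counts of members and table both rest on these libraries. The largest DG difference was at chr5:32077955-32078819, with 14.0, 15.3, 9.48 and 18.8 CPM in DG saline, 4.0 to 20.9 CPM in CA saline, 0 to 3.14 CPM in NAc and 0.739 to 0.869 CPM in SVZ. DG overlapped with CA and lay above NAc and SVZ (log2 fold change 2.60 ± 0.46, FDR 0.0094, edgeR). The second, chr3:19772097-19772671, had 5.76 ± 1.97 CPM in DG saline (SD, n = 4) and 2.96 ± 2.40 in CA (n = 4), with 0.75 ± 0.229 in NAc (n = 4). In DG METH the OCR on chromosome 5 was at 14.8 and 9.35 CPM in replicates 2 and 3 and at 0.774 and 1.24 CPM in replicates 1 and 4, both among the 5 libraries.

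Both members higher in CA were open in CA and DG. chr1:268640360-268640971 had 2.56, 0.985, 5.59 and 4.27 CPM in CA saline, 2.19 to 3.14 CPM in DG and no more than 0.306 CPM in NAc and 0.739 CPM in SVZ (log2 fold change 2.18 ± 0.39, FDR 0.0071, edgeR). chr3:27721430-27722175 had 4.76 ± 2.74 CPM in CA saline and 3.84 ± 1.11 in DG (SD, n = 4 each), against 0.473 ± 0.225 in NAc (n = 4). CA METH libraries of these OCRs ran from 3.24 to 3.89 and from 3.29 to 7.15 CPM, in the range of their saline libraries.

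**Figure D4:**
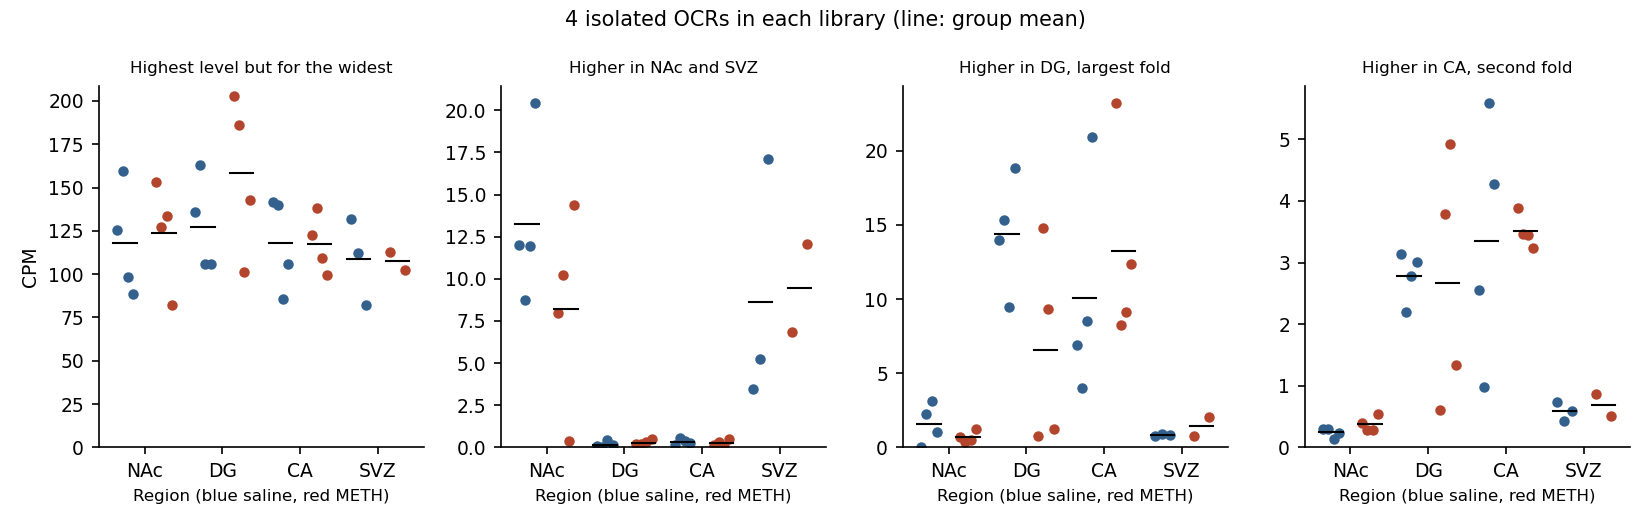
CPM of 4 isolated OCRs in each library, saline blue and METH red, with lines at group means. From left to right are the second highest OCR, on chromosome 19, which ran from 82.1 to 203 CPM with its regions overlapping, then the OCR on chromosome 16 high in NAc and SVZ, the OCR on chromosome 5 with the largest DG difference and the OCR on chromosome 1 higher in CA. The last 3 panels are low in the other pair of regions.

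Lower calls followed the same division. Isolated OCRs called lower numbered 42 in CA (3.5%) against 0.708% of the table, 6 in NAc (0.5%) against 0.263%, 7 in DG (0.584%) against 0.188% and none in SVZ, where 0.00611% of the table was called. The 42 lower in CA had median saline levels of 0.388 CPM in CA and 0.616 CPM in DG, and 6.95 CPM in NAc and 5.02 CPM in SVZ. This count was 2 with TMM library sizes, 138 with DESeq2 and 20 in the METH libraries. It also depended on single libraries, at 0 without CA saline replicate 1 or 3, 2 without NAc saline replicate 3 or 4, and 72 without DG saline replicate 2 and CA saline replicate 2. The region contrasts share their libraries, so these lists are not independent of the NAc list.

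Peak calls, taken from the same libraries, also separated NAc and SVZ from DG and CA. Here the hippocampal side held more members, as it did among the remaining OCRs. That side also had more libraries, and the CA libraries were the deepest, with a mean of 15.9 M counts after saline against 9.54 M in SVZ. The part of depth and library number was not tested. Peaks in all 4 regions were found at 505 isolated OCRs (42.1%) against 63.1% of the remaining OCRs. Peaks in NAc or SVZ libraries only were found at 209 (17.4%) against 6.42%, and in DG or CA libraries only at 280 (23.4%) against 12.7%. Within level groups the larger shares were found in the lowest one, with 29.1% against 21.4% and 38.1% against 34.7%. In the second level group the order was reversed, at 3.03% against 3.86% and 6.49% against 13.3%, and in the upper level groups no isolated OCR had such peaks, against 0.721% and 3.26% of the remaining OCRs in the third and 0.0167% and 0.121% in the highest.

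METH minus saline was compared within each region in 1 model of the 8 groups, and no isolated OCR changed at the thresholds of a fold above 1.5 and an FDR under 0.001. The count was 0 in NAc, DG, CA and SVZ alike, and 0% of the whole table was called in each region as well (edgeR quasi-likelihood F test). DESeq2 also called 0 isolated OCRs in each region, although its adjusted p was missing for 1171 of the 1199 in DG and 1101 in SVZ. The lowest FDR among isolated OCRs was 0.493 in DG and above 0.99 in the other regions. The median standard error of a log2 fold change was 0.58 to 0.60 in the first 3 regions and 0.75 in SVZ, against 0.38 to 0.39 and 0.50 in remaining OCRs, so the differences of isolated OCRs were less precise. The study itself reported changed open regions in each brain region at these thresholds. It had first removed unwanted variation with RUVr, a step that the main fit here left out.

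At an unadjusted p under 0.05, 13 isolated OCRs were higher and 30 lower after METH in NAc (1.08% and 2.5%, against 1.03% and 1.42% of the table). In DG it was 27 and 41 (2.25% and 3.42%, against 3.57% and 6.28%), in CA 5 and 0 (0.417% and 0%, against 0.353% and 0.467%) and in SVZ 28 and 5 (2.34% and 0.417%, against 1.27% and 2.2%). The shares of isolated OCRs lay near those of the table or below them, except for lower OCRs in NAc and higher OCRs in SVZ. Without the 5 libraries, 25 isolated OCRs were higher and 53 lower in NAc (2.09% and 4.42%, against 0.985% and 2.2% of the table). In DG 11 were then higher and 11 lower (0.917% each, against 0.493% and 1.48%), and in CA 6 and 8 (0.5% and 0.667%, against 0.273% and 0.319%). No isolated OCR passed the adjusted thresholds without them in any region (edgeR). With 5 factors of unwanted variation estimated from the residuals (RUVr), 36 isolated OCRs (3.0%) passed the thresholds in DG and 1 in NAc, where 4.65% and 0.0173% of the table did. The study does not give the number of factors it used.

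The median METH difference of isolated OCRs departed from that of the remaining OCRs mainly in SVZ. On the log2 scale it was -0.06 in NAc against -0.01, -0.21 in DG against -0.15, 0.16 in CA against 0.02 and 0.32 in SVZ against -0.01. In SVZ 879 of the 1199 (73.3%) had a positive difference, where 49.1% of the remaining OCRs did, and in CA 796 (66.4%) against 53.2%. The SVZ median was 0.34 in the lowest level group, 0.38 and 0.32 in the next and 0.11 in the highest, against 0.07, 0.05, 0.02 and -0.12 in remaining OCRs. It also moved with distance, from -0.06 for OCRs with a neighbour within 1000 bp to 0.22 at 50000 to 100000 bp and 0.38 beyond 500000 bp.

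**Figure D5:**
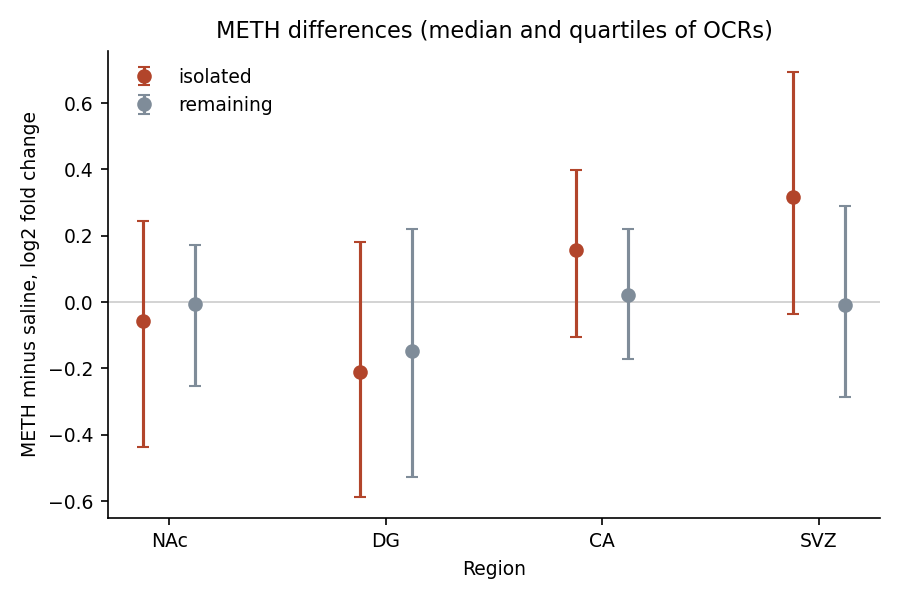
METH minus saline as log2 fold change in each region, drawn as the median (points) and quartiles (bars) over isolated (red) and remaining (grey) OCRs. In SVZ the isolated median is 0.32 and the remaining one -0.01, and in the other regions the 2 medians differ by less, with wider bars for isolated OCRs throughout.

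The SVZ shift rests on 2 METH and 3 saline libraries. The level of isolated against remaining OCRs was -0.62 and -0.39 in SVZ METH replicates 1 and 2 and -0.79, -0.92 and -0.82 in the saline libraries, which do not overlap. Without replicate 2, the library with the additional tag, the median difference was 0.24, and over the other libraries left out it was 0.31 to 0.37. The top-decile share was 46.4% and 47.1% in the METH libraries and 47.1% to 52.3% in the saline ones, and with this share as a term the median was 0.15. What else moved with the shift was not tested. Libraries with the same name tag as both METH libraries, saline replicates 2 and 3, gave a METH minus saline level of 0.37, and 0.34 came from all 5. With the name tag as a term in the fit, the median METH difference in SVZ was 0.25.

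In DG and CA the medians followed single libraries. The DG median was -0.68 without METH replicate 3 and -0.05 without METH replicate 1, and it was 0.05 once the 5 libraries with the lowest isolated level were left out. Without them the NAc median was -0.05, the CA median 0.05 and the SVZ median 0.32. The CA median ran from 0.05 without saline replicate 2 to 0.28 without saline replicate 3. Differences between the METH effects of 2 regions were not tested.

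The isolated OCRs with the lowest unadjusted p for METH are given as the strongest candidates of each region, and none passed the adjustment. In NAc, chr6:121569461-121570110 had 0.876, 0.509, 0.545 and 1.00 CPM after saline and 1.71, 7.29, 0.369 and 4.82 CPM after METH (log2 fold change 2.26 ± 0.77, FDR 1.00). METH replicate 3 lay below all 4 saline libraries there. In the opposite direction, chr8:98348597-98349246 had 0.682, 4.69, 3.20 and 1.00 CPM after saline and 0.277 to 0.705 CPM after METH (-2.23 ± 0.68, FDR 1.00), with 1 saline library inside the METH range.

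In DG, chr15:76526263-76526656 had 1.39 to 2.68 CPM after saline and 5.33, 3.01, 3.15 and 12.9 CPM after METH, so the groups did not overlap (log2 fold change 1.73 ± 0.51, FDR 0.493, edgeR). chr14:50534539-50535176 had 0.858, 0.365, 0.927 and 0.366 CPM after saline and 0, 0.0860, 0 and 0.191 CPM after METH in DG, again without overlap (FDR 0.493, edgeR). These were 27 and 3 counts, a ratio of METH to saline of 0.103 with an exact binomial 95% interval of 0.02 to 0.335 that covers counting error only. Its level was highest in NAc, where saline libraries held 1.85 to 8.86 CPM.

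In CA the OCR with the lowest p among those higher after METH was chr16:76772115-76772656, with 1.86 ± 0.802 CPM after saline and 3.56 ± 0.956 after METH (SD, n = 4 each, 0.94 ± 0.36 on the log2 scale). The lowest among those lower was chr1:10283805-10284304, with 0.287 ± 0.234 and 0.0721 ± 0.0711 CPM (n = 4 each). In SVZ, chr1:119696514-119697163 had 4.11, 3.65 and 2.13 CPM after saline and 7.71 and 6.49 CPM after METH (1.10 ± 0.37). chr15:36020230-36021111, a high OCR with 24.4 CPM on average and a peak in all 29 libraries, had 29.3, 26.2 and 15.4 CPM after saline and 8.48 and 14.3 CPM after METH (-1.05 ± 0.37). The SVZ groups did not overlap at either OCR, and the FDR of all 4 was above 0.99 (edgeR).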

How the data were processed

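ATAC-seq had been made with the omni-ATAC protocol from frozen tissue. The authors processed reads with the AIAP pipeline at default parameters on rn6, called peaks per library, unpooled, and joined them into OCRs with mergeBed. The deposited table holds raw counts per OCR, and its counter is not given. The deposited peak lists give, per the file headers and columns of the narrowPeak format, the fold enrichment of each peak and its −log10 q. The authors' columns of comparisons and pooled levels were not used, and the number of per-sample columns left out was 0.

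Counts of 98237 OCRs in 29 libraries were tested with edgeR 4.0.16 (R 4.3.3) quasi-likelihood F tests on upper-quartile library sizes with Benjamini-Hochberg adjustment over the whole table. CPM used a prior count of 2 only on the log2 scale. Regions were compared in the 15 saline libraries (log2 fold change above 1, FDR under 0.01) and METH minus saline in all 29 (fold above 1.5, FDR under 0.001). A peak overlapped an OCR by at least 1 bp (bedtools 2.31.1). Alternatives were TMM, DESeq2 1.42.0, a filter at 1 CPM, blocks, the peak-name tag, RUVr and other covariates, and leaving out libraries. The edgeR fit of METH minus saline, for DG, was tested on simulated data.

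Members and lists were chosen with earlier results of these data known. The OCRs named were the 6 highest by mean log2 CPM, the 3 most remote, the 2 with the largest fold among those higher in each region, the lowest METH p in each direction and region, the 3 on either side of the distance limit, the widest, the narrowest, and the 6 highest with a human gene. A number in the peak names, shared between regions and read here as the animal, pairs libraries of different regions. The main region tests had no block for it, and the animal was fitted as a block only as an alternative. Correlations of deviations from group means within such pairs ran from -0.43 to 0.66. METH and saline libraries with the same replicate number came from different animals (-0.26 to 0.69). No source says how libraries were batched, and p-values measure only the spread between these samples.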

Additional observations from a re-analysis of the deposited data

Results flagged for a closer look

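Among the OCRs named above, 138 groups of 4 libraries were examined for 1 library far from the other 3. In all, 7 were found, about the number that chance gives at 1 in 20. In 4 of the 7 it was the saline replicate 3 of its region. At chr8:98348597-98349246 saline replicate 3 had 3.5 CPM in DG, the others 1.33 to 1.55 CPM, and 5.52 CPM in CA, the others 2.10 to 2.42 CPM. At chr3:19772097-19772671 it had 1.09 CPM in NAc, the others 0.611 to 0.682 CPM. At chr5:91767144-91767533 it had 0.103 CPM in DG, which was 1 count, and the others 0.

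At chr16:76772115-76772656, saline replicate 1 of CA had 3.05 CPM against 1.33 to 1.60 CPM, and METH replicate 2 of CA had 4.98 CPM against 2.88 to 3.19 CPM. At chr6:121569461-121570110, METH replicate 2 of DG had 5.68 CPM against 0.172 to 1.08 CPM.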

How the results depend on the processing

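Of 286 alternatives, 209 left a result within 1.5 times its count or within 1 SD of its level, and 77 moved it, 58 of them counts by region. These limits were wide for METH. Of 69 alternatives for METH medians, 68 counted as unmoved, although the DG median ran from -0.68 without METH replicate 3 to 0.05 without the 5 libraries. Another 59 of the 209 were METH counts that stayed at 0. Terms for the top-decile share, fits without the 5 libraries and all alternatives for OCRs lower in CA were chosen after seeing the data. The level of isolated against remaining OCRs (-0.73) was -0.31 once peaks outside the table counted as neighbours, and -0.75 to -0.71 with any library left out. The 187 OCRs higher in NAc were 86 in METH libraries, and 102 to 209 with 1 library left out. The 7 in DG were 0 with TMM, 57 with DESeq2, 0 in METH libraries, 63 with the top-decile term, and 0 to 50 with 1 library left out. The 2 in CA were 0 with TMM, 50 with DESeq2, 31 in METH libraries, 17 with the top-decile term, 50 without the 5 libraries, and 0 to 35 with 1 library left out. The 25 in SVZ were 5 with TMM, 81 with DESeq2, 46 with the top-decile term, 48 without the 5 libraries, and 0 to 39 with 1 library left out. With DESeq2 the share of the table called higher rose too, from 0.155% to 1.31% in DG, from 0.0814% to 1.35% in CA and from 0.399% to 1.53% in SVZ. The causes were not tested. The 0 METH calls stayed 0 with any library left out and were 1 in NAc and 36 in DG with RUVr. With 1 library left out, the METH median ran from -0.10 to -0.03 in NAc and from -0.68 to -0.05 in DG. It ran from 0.05 to 0.28 in CA and from 0.24 to 0.37 for SVZ, where it was 0.15 with the top-decile term.

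With the replicate number as a replicate block, 12 were higher in DG and 1 in CA, and 198 in NAc. With the animal as a replicate block, the counts higher were 212 for NAc, 7 for DG, 8 for CA and 0 for SVZ. At a median of 34.3 counts per library, small differences were not detectable.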

Other observations

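Isolated OCRs that followed each other along a chromosome formed 438 neighbouring pairs. In 10 pairs both members were higher in NAc, in 126 pairs 1 was, and in 302 neither was. When 1 member was called, 13.7% of its partners were called too, against 15.6% of all isolated OCRs. By chromosome, the share called higher in NAc ran from 3.85% (1 of 26) on chromosome 17 to 31.8% (7 of 22) on chromosome 20.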
